A study of Homo sapiens with 24 samples.

Results

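The table of the leukaemia line MV4-11 held 33 genes whose symbol starts with LINC, and 11 of them were expressed: LINC00869, LINC03040, LINC01145, LINC01347, LINC00680, LINC02210, LINC01667, LINC00888, LINC01881, LINC00674 and LINC02898. The 11 were selected on level alone, as genes with at least 1 CPM (the raw count per 1000000 counts of the library) in at least 3 of the 24 libraries. The table as a whole had 38048 genes, of which 29718 carried a symbol. Of the 22 LINC genes under the threshold, 9 were listed at 0 in every library.

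MV4-11 is a human acute myeloid leukaemia cell line with an MLL-AF4 fusion, and the labels give its genotype as PRMT5 +/+ in every library. Poly(A) RNA was sequenced as unstranded libraries in 8 groups of 3 (replicates A, B and C). The groups were PRT220 at 3 nM, which inhibits PRMT5, GSK-LSD1 at 10 nM, which inhibits the lysine demethylase LSD1, PRT220 with GSK-LSD1, MS023, which blocks the type I class of protein arginine methyltransferases, MS023 with GSK-LSD1, the code-named compounds MC4455 and MC4491, and the vehicle DMSO. The series text gives 3 days of treatment for DMSO, PRT220, GSK-LSD1 and the PRT220 combination, and the sources used here give no dose or time for MS023, MC4455 or MC4491. All values come from 1 line, and the labels do not say whether replicates were separate cultures, so a p-value here speaks of the spread among libraries, which may be technical. Because the samples were bulk RNA, fewer transcribing cells and less RNA per cell cannot be told apart.

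LINC symbols are given to long intergenic RNAs that encode no known protein. Such RNAs are made by RNA polymerase II, are usually spliced and polyadenylated, and in most cases have no established function. PRMT5 places symmetric methyl marks on arginines of histones and of the Sm proteins of the spliceosome. LSD1 removes methyl groups from histone lysines and in myeloid cells works with the repressor GFI1, and inhibitors of LSD1 are known to push leukaemia cells of this kind towards monocytic differentiation.

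The library totals ran from 32495446 to 61090593 counts. Markers fitted the label: FLT3 lay at 578 to 715 CPM, MEIS1 at 128 to 182 CPM and HOXA9 at 50.2 to 61.2 CPM. CD3E, MS4A1, HBB, EPCAM, KRT19 and COL3A1 were at or near 0. In 8 of the 24 libraries the gene RRP9 was at 0.677 to 1.73 CPM, while the remaining 16 had 29.1 to 36.2 CPM. The low group comprised all 3 PRT220 libraries, replicate C of PRT220 with GSK-LSD1, replicates A and C of MS023, replicate B of MS023 with GSK-LSD1 and replicate C of DMSO. With a term for these libraries, LINC02898 was the member that differed between them and the rest, by -0.72 on the log2 scale (adjusted p = 0.0335, edgeR). Among all genes, 163 were called higher and 533 lower in the RRP9-low libraries, 4.18% of those tested.

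Most members are transcribed pseudogene loci. In GENCODE 29, 7 of the 11 are typed as transcribed unprocessed pseudogenes, 1 (LINC02210) as a transcribed unitary pseudogene and 1 (LINC01667) as a lincRNA. The other 2 carried protein-coding names there, C6orf223 for LINC03040 and C2orf91 for LINC02898. The table held 868 of the 884 transcribed unprocessed pseudogenes of that release, but 15 of its 7629 lincRNA genes. LINC-PINT and LINC00467 had no entry by symbol in the table, so they could not be analysed. The same held for all 22 well-known long noncoding RNAs looked up, such as MALAT1 and NEAT1. GENCODE 29 gives a LINC name to 1891 genes, against 33 LINC symbols in the table. At the edge of the threshold, the third-highest library of LINC02898 had 1.75 CPM and that of LINC00674 had 1.62 CPM, against 0.789 CPM for LINC03042 and 0.647 CPM for LINC00933, which were left out. The other 9 members had at least 1 CPM in all 24 libraries, LINC00674 in 22 and LINC02898 in 14. LINC02898 reached it in no DMSO or PRT220 library. It thus entered through groups in which it was high, so its differences from DMSO and PRT220 are a description and support no count.

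The loci lie on 6 chromosomes of GRCh38 (GENCODE 29). On chromosome 1, LINC01145 (ENSG00000272419) spans 145164099 to 145216058 on the minus strand, LINC00869 (ENSG00000277147) 149606334 to 149679523 on the plus strand, and LINC01347 (ENSG00000214837) 243056307 to 243101744 on the minus strand. On chromosome 6, LINC03040 (ENSG00000181577) spans 44000580 to 44005958 on the plus strand and LINC00680 (ENSG00000215190) 57946074 to 57961501 on the minus strand. On chromosome 17, LINC02210 (ENSG00000204650) spans 45620328 to 45655156 and LINC00674 (ENSG00000237854) 68101908 to 68115518, both on the plus strand. On chromosome 2, LINC02898 (ENSG00000205086) spans 41935368 to 41956806 on the minus strand and LINC01881 (ENSG00000220804) 242088633 to 242160153 on the plus strand. LINC00888 (ENSG00000240024) spans 183447608 to 183456013 on the plus strand of chromosome 3, and LINC01667 (ENSG00000280081) spans 9781918 to 9814009 on the minus strand of chromosome 21.

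Many members have near-identical copies, which bears on every value of theirs. In alignments of member transcripts to all GENCODE 29 transcripts (at least 95% identity over at least 200 bases), LINC01347 matched 23 other genes, LINC00869 19, LINC01881 16, LINC01145 10, LINC00680 and LINC02210 2 each, and LINC00674 1. LINC03040, LINC02898, LINC00888 and LINC01667 matched none. LINC00869 matched FAM91A1, a protein-coding gene, at 95.82% over 3040 bases. LINC01145 matched LINC02591, a lincRNA gene that the table does not hold, at 99.73% over 3389 bases. That stretch is the whole of LINC01145-207, the transcript with 32.8% of the LINC01145 counts. The table held 12 of the genes matched by LINC01347, 9 of those of LINC00869, 9 of those of LINC01881 and 3 of those of LINC01145. Reads from such stretches can be divided between copies by the quantification, so levels of the copied members are uncertain. How far reads of copies that the table does not hold entered the member counts was not tested. Because the libraries were unstranded, reads of LINC03040 cannot be told apart from those of an overlapping antisense gene, nor can those of LINC00680, LINC01145 and LINC00869 from opposite-strand models that share their exons. LINC00888 shares exonic sequence with a snoRNA.

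Per length, LINC00869 was the most abundant member and LINC02898 the least. Levels here are TPM (transcripts per 1000000, a length-scaled unit) computed from the transcript counts, as the mean and range over the 24 libraries. LINC00869 averaged 133 TPM (121 to 147), above 93.06% of protein-coding genes of the table. LINC01145 averaged 56.1 TPM (45.2 to 73.0) and LINC03040 25.4 TPM (11.7 to 46.3). These 3 ranges stood apart from each other except that LINC03040 in its highest library just exceeded LINC01145 in its lowest. LINC00680 followed at 9.80 TPM (6.28 to 12.5). LINC00674 (6.70 TPM), LINC01347 (5.76 TPM), LINC01881 (5.62 TPM), LINC02210 (5.33 TPM) and LINC00888 (4.01 TPM) had overlapping ranges and are not ordered beyond their spread. LINC01667 averaged 2.04 TPM, although 33.58% of its gene count lay on transcripts that could be paired with it. LINC02898 averaged 0.707 TPM (0.288 to 1.24).

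**Figure D1:**
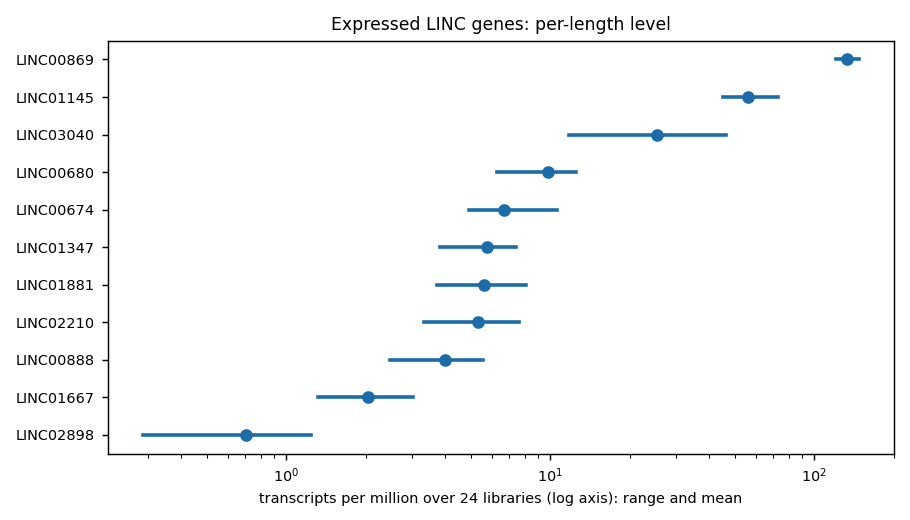
Per-length level of the 11 expressed LINC genes over all 24 libraries, in TPM on a log axis; the point is the mean and the line the lowest to highest library. LINC00869, LINC01145 and LINC03040 lie above 10 TPM in every library, and LINC02898 averages 0.707 TPM.

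LINC03040 varied most. Its highest library was 3.96-fold above its lowest, against 3.90-fold for the sparse LINC02898 and 1.33-fold for the abundant LINC00869. The levels in the rest of the text are CPM scaled by TMM. LINC02898 rests on 22 to 82 counts per library and LINC00674 on 35 to 74.

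**Figure D2:**
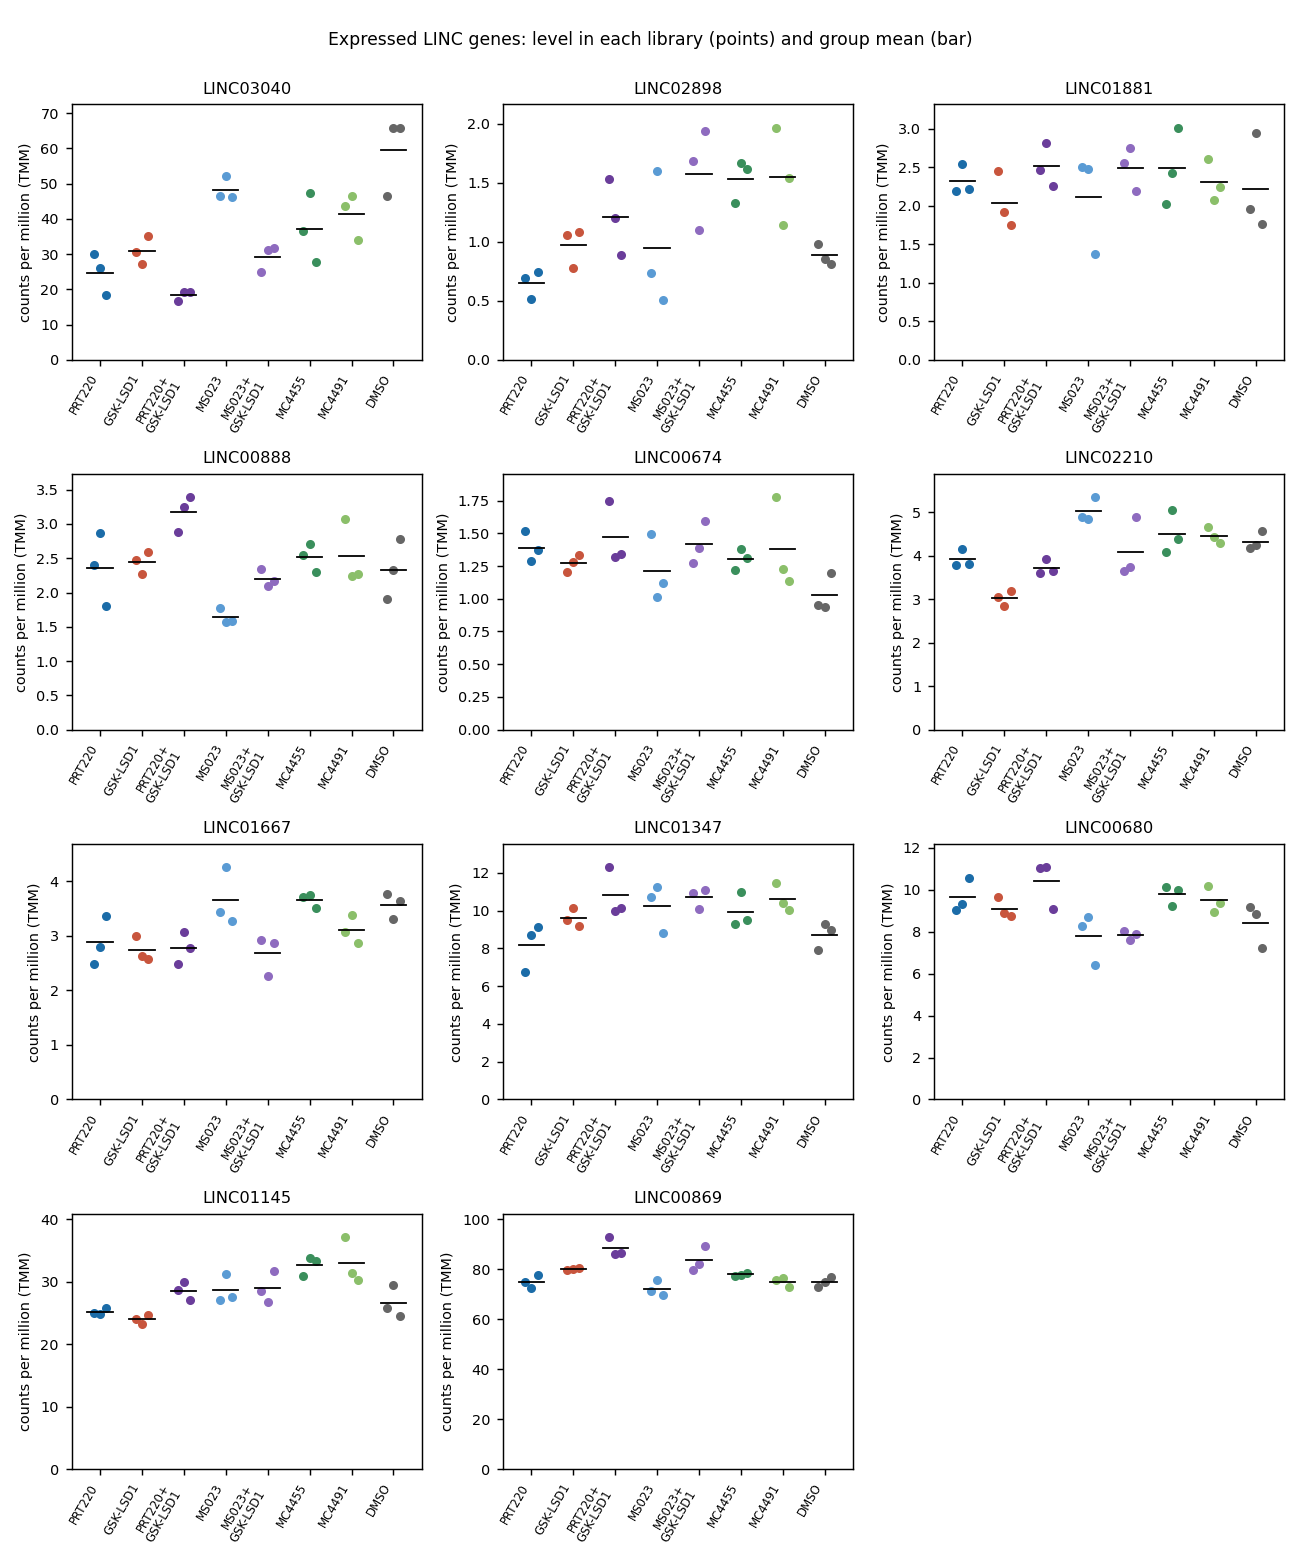
Level of each expressed LINC gene in every library, in TMM-scaled CPM on linear axes from 0, with a bar at the mean of each group of 3; panels run from the largest to the smallest ratio of highest to lowest library. LINC03040 is at 16.6 to 19.3 CPM in the libraries treated with PRT220 and GSK-LSD1 and at 46.5 to 65.9 CPM in those with DMSO.

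LINC03040 fell in 6 of the 7 treatments. Its RefSeq promoter, shown because no other member changed as much, runs from 250 bases before to 50 bases after the start at chr6:44000335-44000634 on the plus strand of GRCh38.p14. Capitals mark the match to the PU.1 motif GAGGAAGT that begins 16 bases before the start.
LINC03040 promoter: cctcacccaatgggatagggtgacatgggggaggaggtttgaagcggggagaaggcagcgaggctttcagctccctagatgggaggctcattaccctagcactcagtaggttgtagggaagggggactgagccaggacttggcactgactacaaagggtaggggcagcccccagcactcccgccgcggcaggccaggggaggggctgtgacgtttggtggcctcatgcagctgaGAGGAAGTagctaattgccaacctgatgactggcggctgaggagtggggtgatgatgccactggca
Of the 35116 promoters of 300 bases in the RefSeq table, 2.59% hold this motif on either strand. Neither the GFI1 motif AATCAC, the C/EBP motif TTGCNNAA, the AP-1 motif TGANTCA nor the E-box CACGTG was found in it on either strand. Those letters occur in 10.2%, 10.5%, 7.71% and 7.26% of all promoters in that order.

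With PRT220, LINC03040 had 29.9, 25.9 and 18.3 CPM, against 46.5, 65.9 and 65.9 CPM with DMSO. All 3 PRT220 libraries lay below all 3 DMSO libraries. The fall was -1.27 ± 0.186 on the log2 scale (± SE, n = 3 against 3, adjusted p = 3.47e-05, edgeR's quasi-likelihood test), which is a level of 0.416 of that in DMSO. It was the single member called in this comparison, in which 13.8% of the 16640 genes tested were called higher and 11.1% lower. The other 10 members ranged in both directions, and their values did not pass the test. LINC00674 had 1.52, 1.285 and 1.37 CPM with PRT220, against 0.954, 0.939 and 1.196 CPM with DMSO (adjusted p = 0.110, edgeR), and its groups did not overlap.

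With GSK-LSD1, LINC03040 had 30.5, 27.3 and 35.0 CPM, again below all 3 DMSO libraries, a fall of -0.94 ± 0.184 (adjusted p = 0.000405, edgeR). This was 1 of 3 members called lower, and none was called higher. Among all genes, 17.6% were called higher and 15.0% lower.

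With both agents, LINC03040 reached its lowest levels of the study, 16.6, 19.3 and 19.2 CPM. The fall against DMSO was -1.70 ± 0.190 on the log2 scale (adjusted p = 2.84e-07, edgeR). The combination was also lower than GSK-LSD1 alone, by -0.75 ± 0.189 (adjusted p = 0.00925, edgeR), with no overlap of the libraries. Against PRT220 alone the difference was -0.43 ± 0.189, which did not pass the test (adjusted p = 0.0791, edgeR), and replicate C of PRT220, at 18.3 CPM, lay among the combination libraries. The single changes sum to more than the combined one. The departure from that sum was 0.51 ± 0.263 on the log2 scale, with an interval of -0.03 to 1.06, and did not pass the test (adjusted p = 0.541, edgeR interaction term).

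With MS023 it had 46.6, 52.2 and 46.2 CPM, a difference of -0.30 ± 0.182 from DMSO that did not pass the test (adjusted p = 0.459, edgeR). MS023 with GSK-LSD1 had 24.8, 31.1 and 31.6 CPM, a fall of -1.03 ± 0.185 (adjusted p = 0.000122, edgeR). With MC4455 it had 36.5, 47.2 and 27.9 CPM, a fall of -0.68 ± 0.183 (adjusted p = 0.00694, edgeR), and replicate B overlapped the lowest DMSO library. With MC4491 it had 43.7, 46.5 and 34.0 CPM, a fall of -0.52 ± 0.183 (adjusted p = 0.0357, edgeR). The MC4491 call was lost without MC4491 replicate A or C or DMSO replicate B or C, with changes of -0.57, -0.40, -0.45 and -0.45 (adjusted p = 0.061 to 0.141, edgeR). It was also lost with a term for the RRP9-low libraries (-0.50, adjusted p = 0.0530, edgeR) and among the libraries with high RRP9 (-0.44, adjusted p = 0.122, edgeR). The calls for the other 5 treatments held with every library left out in turn.

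LINC03040 counts were spread over 3 transcripts of 3581, 2757 and 3109 bases, which held 47.2%, 27.8% and 25.0% of them. These shares were not called changed under any treatment. Its nearest tested protein-coding gene, TMEM63B at 126334 bases between starts, was not called in any of the 12 comparisons, and its log2 changes against DMSO ran from -0.17 to 0.10.

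**Figure D3:**
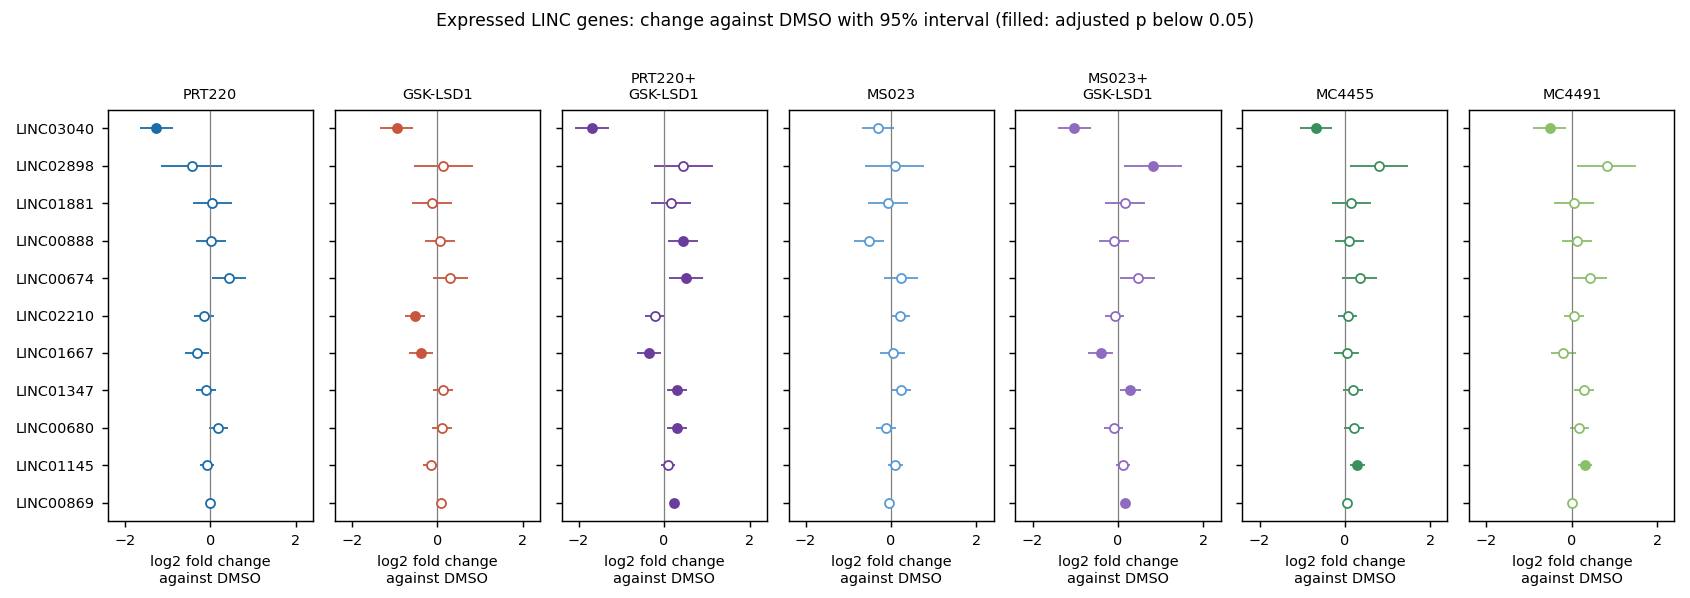
Log2 fold change of each expressed LINC gene against DMSO under the 7 treatments, with its 95% interval from the edgeR fit; filled points passed an adjusted p of 0.05. LINC03040 lies left of 0 in every panel and is filled in 6 of 7, and most other members lie within 0.5 of 0.

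LINC02210 fell with GSK-LSD1 and was not called in the other 11 comparisons. It had 3.06, 2.84 and 3.19 CPM with GSK-LSD1, against 4.17, 4.24 and 4.56 CPM with DMSO. The groups did not overlap, and the fall was -0.51 ± 0.111 on the log2 scale (n = 3 against 3, adjusted p = 0.00108, edgeR). The call held with every library left out, with changes between -0.55 and -0.47. When PRT220 was added, LINC02210 had 3.60, 3.92 and 3.65 CPM, a difference of -0.22 ± 0.110 from DMSO (adjusted p = 0.118, edgeR) and of 0.30 ± 0.112 from GSK-LSD1 alone (adjusted p = 0.0801, edgeR). The interaction term was 0.44 ± 0.157 (unadjusted p = 0.011, adjusted p = 0.296, edgeR), so the difference between the effects of GSK-LSD1 with and without PRT220 did not pass the test. MS023 with GSK-LSD1 had 3.65, 3.73 and 4.89 CPM, which overlapped DMSO.

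The LINC02210 locus also yields a readthrough transcript into CRHR1, whose own entry, LINC02210-CRHR1, reached at most 0.0288 CPM in any library. A stretch of 476 bases of LINC02210 matches KANSL1 at 99.79%. KANSL1 itself was not called with GSK-LSD1 (0.09 on the log2 scale, adjusted p = 0.416, edgeR). The nearest tested protein-coding gene, MAP3K14, a kinase of the noncanonical NF-kappaB pathway with its start 303183 bases away, moved the opposite way with GSK-LSD1, by 0.53 (adjusted p = 3.54e-05, edgeR). MAP3K14 rose about as much with PRT220 and GSK-LSD1 (0.55, adjusted p = 1.37e-05, edgeR) and with MS023 and GSK-LSD1 (0.54, adjusted p = 2.32e-05, edgeR). LINC02210 was not called in either combination (-0.22 and -0.08), and a link between the genes was not tested. The promoter at the annotated start is shown because this was, with LINC03040, the member whose fall with GSK-LSD1 held in every alternative. It covers chr17:45620079-45620378 on the plus strand of GRCh38.p14, and none of the 5 motifs was found, so no letters are in capitals.
LINC02210 promoter: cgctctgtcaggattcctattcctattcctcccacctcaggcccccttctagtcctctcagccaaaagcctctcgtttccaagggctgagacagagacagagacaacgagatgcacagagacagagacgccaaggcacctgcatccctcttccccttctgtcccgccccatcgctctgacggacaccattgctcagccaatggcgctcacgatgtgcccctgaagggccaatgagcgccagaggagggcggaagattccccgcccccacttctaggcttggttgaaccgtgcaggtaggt

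LINC01667, the single member typed as a lincRNA, was lower wherever GSK-LSD1 was present. It had 3.01, 2.64 and 2.57 CPM with GSK-LSD1, against 3.76, 3.31 and 3.63 CPM with DMSO, a fall of -0.38 ± 0.138 (adjusted p = 0.0387, edgeR). With PRT220 and GSK-LSD1 it had 2.49, 3.07 and 2.79 CPM (-0.36 ± 0.138, adjusted p = 0.0384, edgeR). With MS023 and GSK-LSD1 it had 2.93, 2.27 and 2.87 CPM (-0.41 ± 0.138, adjusted p = 0.0192, edgeR). None of these groups overlapped DMSO. The calls were close to the threshold. That for GSK-LSD1 was lost without GSK-LSD1 replicate B or C or DMSO replicate A or C (changes of -0.39 to -0.34, adjusted p = 0.0676 to 0.126, edgeR). The same call was lost with the replicate letter as a block. That for PRT220 with GSK-LSD1 was lost without its replicate A or C or DMSO replicate A or C (-0.36 to -0.28, adjusted p = 0.0732 to 0.155, edgeR), and with the replicate letter as a block (adjusted p = 0.0511, edgeR). That for MS023 with GSK-LSD1 was lost without its replicate B or DMSO replicate A (-0.30 and -0.37, adjusted p = 0.0994 and 0.0628, edgeR). Among the libraries with high RRP9 none of the 3 passed, with changes of -0.37 for GSK-LSD1, -0.35 for PRT220 with GSK-LSD1 and -0.29 for MS023 with GSK-LSD1 (adjusted p = 0.0596, 0.0839 and 0.145 in that order, edgeR). With only the compared groups in the fit, both combinations lost the call (-0.37 with PRT220 and -0.43 with MS023, adjusted p = 0.0660 and 0.0749, edgeR).

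In the PRT220 and GSK-LSD1 combination, 7 of the 11 members were called, 5 higher and 2 lower. Among all genes 24.4% were called higher and 22.1% lower, against 63.6% of the 11 members in both directions together. The median change of the members was 0.24 on the log2 scale, against 0.04 for all genes tested. The count was 2 when the fit held these 2 groups alone, 3 without the filter on low counts, 5 by DESeq2 and 6 among the libraries with high RRP9. The members called higher were LINC00869, LINC01347, LINC00680, LINC00674 and LINC00888. LINC00869 had 92.7, 86.1 and 86.3 CPM with the combination, against 73.0, 74.9 and 76.7 CPM with DMSO. The groups stood apart, and the rise was 0.24 ± 0.043 (adjusted p = 9.11e-05, edgeR), a change small in size that held with each library left out.

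LINC00888 had 2.88, 3.25 and 3.39 CPM with the combination, against 1.91, 2.32 and 2.78 CPM with DMSO (0.44 ± 0.167, adjusted p = 0.0367, edgeR). Its gene neighbour MCF2L2, a guanine nucleotide exchange factor gene whose start is 18830 bases away, rose with it by 0.48 (adjusted p = 0.0298, edgeR). MCF2L2 also rose with MC4455, by 0.81 (adjusted p = 0.00144, edgeR), where LINC00888 differed from DMSO by 0.11 and was not called. LINC00674 had 1.75, 1.32 and 1.34 CPM with the combination, against 0.954, 0.939 and 1.196 CPM with DMSO (0.51 ± 0.193, adjusted p = 0.0343, edgeR). LINC00680 had 11.0, 11.1 and 9.08 CPM, against 9.19, 8.85 and 7.22 CPM with DMSO (0.30 ± 0.109, adjusted p = 0.0276, edgeR), and these groups overlapped. LINC01347, whose sequence recurs in copies across the genome, had 12.3, 9.98 and 10.2 CPM, against 7.91, 9.31 and 8.98 CPM with DMSO (0.31 ± 0.114, adjusted p = 0.0322, edgeR).

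These 4 calls were less firm than that of LINC00869. LINC01347 was lost without replicate A of the combination or DMSO replicate A or C (changes of 0.20 to 0.32, adjusted p = 0.0599 to 0.196, edgeR). LINC00680 was lost without replicate A or B of the combination or DMSO replicate C (0.20 to 0.26, adjusted p = 0.105 to 0.175, edgeR). LINC00674 was lost without replicate A of the combination or DMSO replicate A or B (0.37 to 0.47, adjusted p = 0.0991 to 0.177, edgeR). LINC00888 was lost without replicate B or C of the combination or DMSO replicate A or B (0.32 to 0.42, adjusted p = 0.0841 to 0.167, edgeR). Without replicate A of the combination, or without DMSO replicate A, 3 members were called, and without DMSO replicate C 4 were.

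Against PRT220 alone, the combination had 3 members called higher and 0 lower, beside 19.4% and 18.8% of all genes. Of the 3, LINC02898 is a member only through groups other than PRT220, which leaves 2 without it. LINC00869 had 92.7, 86.1 and 86.3 CPM with the combination, against 74.7, 72.3 and 77.7 CPM with PRT220 (0.24 ± 0.043, adjusted p = 0.000144, edgeR), and the call held with every library left out. LINC01347 had 12.3, 9.98 and 10.2 CPM, against 6.76, 8.69 and 9.14 CPM with PRT220 (0.40 ± 0.114, adjusted p = 0.0087, edgeR). The table held 12 copies of LINC01347, of which GTF2IP12, AL669831.1 and AC110079.1 were also called higher here, by 0.38, 0.42 and 0.38. The values of the other copies are not given here, among them AL133216.2, which matches at 97.45% over 3843 bases. The LINC01347 call was lost without replicate A of either group (0.28 and 0.30, adjusted p = 0.0728 and 0.0694, edgeR). LINC02898 had 1.53, 1.1998 and 0.889 CPM, against 0.693, 0.514 and 0.746 CPM with PRT220 (0.89 ± 0.337, adjusted p = 0.0436, edgeR). All 3 PRT220 libraries were of the RRP9-low kind, and with a term for it the difference was 0.38 (adjusted p = 0.355, edgeR). The LINC02898 call was also lost without any 1 of the PRT220 libraries or replicate A or B of the combination (adjusted p = 0.0571 to 0.185, edgeR).

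Against GSK-LSD1 alone, the combination had LINC03040 lower, as given above, and 2 members higher, beside 7.01% of all genes called higher and 8.34% lower. LINC01145 had 28.6, 30.0 and 27.0 CPM, against 24.02, 23.3 and 24.7 CPM with GSK-LSD1 (0.25 ± 0.081, adjusted p = 0.0407, edgeR). LINC00869 was higher by 0.14 ± 0.043 (adjusted p = 0.0257, edgeR), with 79.7, 79.9 and 80.5 CPM in GSK-LSD1. The groups did not overlap for either gene. The LINC00869 call was lost without any 1 of the GSK-LSD1 libraries or replicate A of the combination (0.11 to 0.15, adjusted p = 0.0607 to 0.144, edgeR), and that of LINC01145 without any 1 of the same libraries or replicate B of the combination (0.21 to 0.27, adjusted p = 0.0673 to 0.155, edgeR). The LINC03040 call held.

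The interaction of PRT220 and GSK-LSD1, the test of whether the combined change departs from the sum of the single ones, called 0 members, beside 0.102% of all genes called higher and 0.439% lower. At an unadjusted p under 0.05 there were 3 members, LINC02210, LINC01145 and LINC00869, and DESeq2 called 0. Shares of all genes at unadjusted cuts are not given in this text, so the 3 cannot be set against them. LINC01145 and LINC00869 also share a stretch of 248 bases at 99.6%. The median term over the members was 0.33 on the log2 scale, against -0.02 over all genes. It was 0.08 over the 373 other transcribed unprocessed pseudogenes tested.

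MS023 alone called 0 of 11 members, beside 0.889% of all genes called higher and 1.36% lower. At an unadjusted p under 0.05 there was 1 member, LINC00888, with 1.78, 1.57 and 1.58 CPM with MS023, against 1.91, 2.32 and 2.78 CPM with DMSO (-0.51 ± 0.170, adjusted p = 0.137, edgeR). DESeq2 also called 0. MS023 with GSK-LSD1 called 5 members, 3 higher and 2 lower, beside 25.1% and 23.3% of all genes. The lower ones were LINC03040 and LINC01667.

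The higher ones with MS023 and GSK-LSD1 were LINC00869, LINC01347 and LINC02898, of which the last is a member only through groups other than DMSO, this one among them, which leaves 2 without it. LINC00869 had 79.7, 82.2 and 89.1 CPM, against 73.0, 74.9 and 76.7 CPM with DMSO (0.16 ± 0.043, adjusted p = 0.00392, edgeR). This call held with each library left out and was lost with only the compared groups in the fit (0.14, adjusted p = 0.0910, edgeR). LINC01347 had 10.9, 10.1 and 11.1 CPM, against 7.91, 9.31 and 8.98 CPM with DMSO (0.29 ± 0.114, adjusted p = 0.0398, edgeR). LINC02898 had 1.68, 1.099 and 1.93 CPM, against 0.982, 0.857 and 0.812 CPM with DMSO (0.83 ± 0.327, adjusted p = 0.0426, edgeR), and its lowest library was the RRP9-low one. LINC01347 lost its call without replicate A or C of the combination or DMSO replicate A or C (0.23 to 0.31, adjusted p = 0.0634 to 0.158, edgeR). LINC02898 lost it without replicate A or C of the combination or any 1 DMSO library (0.65 to 0.90, adjusted p = 0.0614 to 0.167, edgeR). The interaction of MS023 and GSK-LSD1 called 0 members and 0% of all genes in either direction, with 0 members at an unadjusted p under 0.05 and 0 by DESeq2.

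MC4455 called 2 members, LINC03040 lower and LINC01145 higher, beside 18.5% of all genes called higher and 19.2% lower. MC4491 called the same 2, beside 15.5% and 15.2%. LINC01145 had 30.9, 33.9 and 33.2 CPM with MC4455, against 25.9, 29.5 and 24.6 CPM with DMSO (0.29 ± 0.080, adjusted p = 0.00743, edgeR). With MC4491 it had 37.1, 31.5 and 30.3 CPM (0.31 ± 0.080, adjusted p = 0.00734, edgeR). No MC4455 or MC4491 library overlapped DMSO for this gene. Among the libraries with high RRP9 the MC4455 change was 0.23 and was not called (adjusted p = 0.0526, edgeR). With only the compared groups in the fit the MC4491 change was 0.29 and was not called (adjusted p = 0.0709, edgeR). Without MC4491 replicate A its change was 0.20 and was not called (adjusted p = 0.0795, edgeR), and that setting left 0 members called for MC4491.

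MC4455 and MC4491 were compared as 1 pair, with no dose given for either. Between them 0 members were called, beside 0% of all genes in either direction, with 0 members at an unadjusted p under 0.05 and 0 by DESeq2. The difference was -0.15 for LINC03040 with an interval of -0.54 to 0.23, and -0.01 for LINC01145 with an interval of -0.18 to 0.15. LINC02898 had 1.32, 1.67 and 1.61 CPM with MC4455 and 1.97, 1.14 and 1.54 CPM with MC4491, against 0.982, 0.857 and 0.812 CPM with DMSO. Both groups lay above DMSO, and neither difference passed the test (0.80 and 0.81, adjusted p = 0.0614 and 0.0648, edgeR), although DESeq2 called both (adjusted p = 0.0469 and 0.0489). MC4455 and MC4491 are among the groups through which LINC02898 became a member, so these differences from DMSO are a description only.

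LINC01881 was the member called in none of the 12 comparisons. Over all libraries it lay between 1.37 and 3.01 CPM, with a median of 2.34 CPM, and its DMSO libraries alone spanned 1.76 to 2.95 CPM. Its intervals against DMSO reached from -0.60 to 0.63, and changes within these bounds are compatible with the values.

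LINC00869 was the member whose transcript usage changed under most treatments. Its total changed by at most 0.24 on the log2 scale under any treatment, yet the shares of its counts on 3 transcripts that start in the same first exon moved. LINC00869-206 has 9 exons and 5734 bases and reaches the end of the locus. LINC00869-207 has 2 exons and 1260 bases, because it reads on past the donor that LINC00869-206 uses in exon 2. LINC00869-208 has 3 exons and 737 bases, and splices within that extended exon. The 40 bases around each of these points on chromosome 1 (plus strand, GENCODE 29 transcripts) are shown, since they tell these 3 annotated transcripts apart. Capitals mark the 20 bases after the junction, or after the unused donor in LINC00869-207.
LINC00869-206: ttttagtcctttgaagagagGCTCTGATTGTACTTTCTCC
LINC00869-207: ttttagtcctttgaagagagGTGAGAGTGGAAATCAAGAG
LINC00869-208: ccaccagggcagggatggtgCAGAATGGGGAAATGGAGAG
The first 2 share their left side, which ends at 149647064. LINC00869-206 continues at 149655699 and LINC00869-207 at 149647065. LINC00869-208 joins 149646945 to 149647381.

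LINC00869-206 took a larger share in all 3 groups with GSK-LSD1. It held 32.7%, 31.8% and 30.0% of the counts of the gene with GSK-LSD1, against 21.8%, 22.0% and 17.2% with DMSO. With PRT220 and GSK-LSD1 it held 32.2%, 31.7% and 32.3%, and with MS023 and GSK-LSD1 33.5%, 31.9% and 32.4%. All 9 of these libraries lay above all 15 others, the highest of which was at 27.4%. Relative to the other transcripts of the gene, LINC00869-206 rose by 0.77 ± 0.122 with GSK-LSD1, 0.87 ± 0.122 with PRT220 and GSK-LSD1 and 0.86 ± 0.123 with MS023 and GSK-LSD1 (log2, adjusted p = 5.39e-06, 1.94e-08 and 6.24e-08, limma diffSplice over 74383 transcripts). It held 22.6%, 24.5% and 25.2% with PRT220, 24.6%, 23.4% and 27.4% with MC4455 and 25.3%, 23.9% and 22.5% with MC4491. These libraries too lay above all 3 DMSO libraries. With MS023 it held 21.3%, 23.5% and 22.2%, which overlapped DMSO. The relative change with PRT220 was 0.33 ± 0.126 and did not pass the test (adjusted p = 0.132, limma).

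LINC00869-208 took a smaller share in every treatment but MS023 alone. It held 10.6%, 6.66% and 7.81% with PRT220, against 16.1%, 13.7% and 19.7% with DMSO. The relative change was -1.09 ± 0.152 (adjusted p = 1.19e-08, limma). With GSK-LSD1 it held 9.50%, 10.1% and 11.2% (-0.80 ± 0.146, adjusted p = 0.000172, limma). With both it held 5.26%, 6.63% and 7.84%, the lowest group mean of the study (-1.48 ± 0.158, adjusted p = 9.34e-14, limma). These libraries overlapped those with PRT220 alone, and usage was not tested between the 2 groups. With MS023 and GSK-LSD1 it held 10.1%, 9.51% and 10.2% (-0.82 ± 0.149, adjusted p = 4.38e-05, limma). With MC4455 it held 13.3%, 12.98% and 9.21% (-0.54 ± 0.147, adjusted p = 0.0162, limma), and with MC4491 9.31%, 10.6% and 12.9% (-0.68 ± 0.149, adjusted p = 0.00153, limma). All libraries of these 6 groups lay below all 3 DMSO libraries. With MS023 it held 15.7%, 12.3% and 15.5%, which overlapped DMSO, and the difference did not pass the test (-0.19 ± 0.141, adjusted p = 0.955, limma). LINC00623, a lincRNA gene that the table does not hold, matches LINC00869-208 at 99.59% over all 737 bases. How far reads of LINC00623 entered these shares was not tested.

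LINC00869-207 held 44.3%, 44.0% and 41.7% with PRT220, against 37.7%, 40.2% and 38.2% with DMSO, and this difference did not pass the test (0.26 ± 0.110, adjusted p = 0.209, limma). With GSK-LSD1 it held 28.8%, 32.4% and 32.4%, a relative fall of -0.48 ± 0.113 (adjusted p = 0.00955, limma). With MS023 and GSK-LSD1 it held 31.4%, 34.0% and 30.2%, a relative fall of -0.41 ± 0.115 (adjusted p = 0.0238, limma). With PRT220 and GSK-LSD1 it held 35.5%, 35.7% and 34.7%, below all 3 DMSO libraries, and the relative change did not pass the test (-0.18 ± 0.112, adjusted p = 0.476, limma). It was not called with MS023, MC4455 or MC4491 either.

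**Figure D4:**
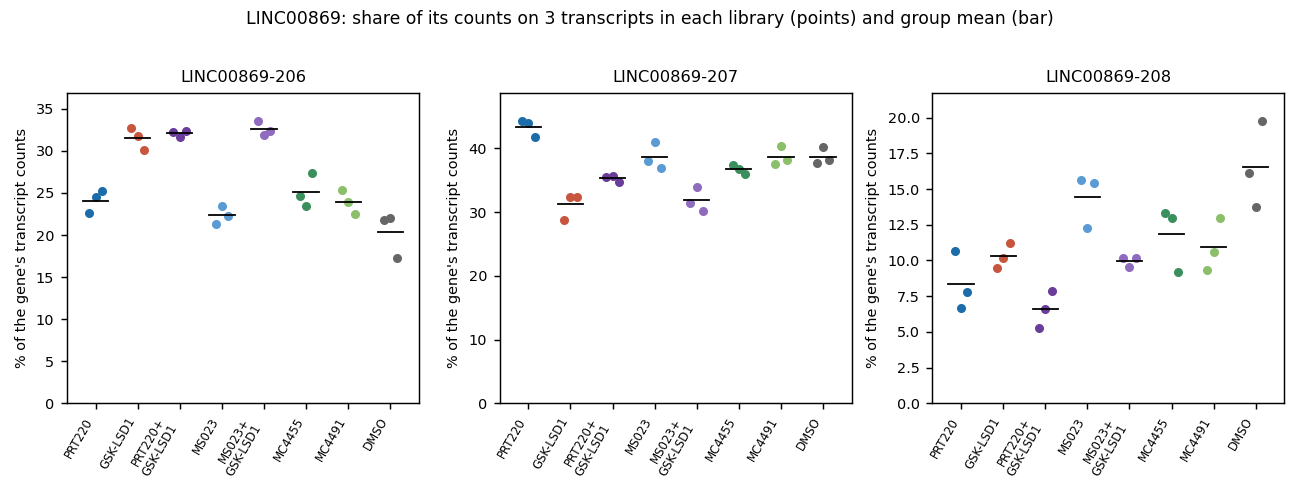
Share of the LINC00869 transcript counts on 3 of its transcripts in each library, in percent on axes from 0, with a bar at the mean of each group. LINC00869-206 is at 30.0% to 33.5% in the 9 libraries with GSK-LSD1 and at 17.2% to 27.4% in the other 15, and LINC00869-208 has its lowest group mean with PRT220 and GSK-LSD1, where the libraries overlap those with PRT220 alone.

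Over the gene as a whole, usage was called changed for LINC00869 in 6 of 7 treatments (Simes adjusted p = 2.31e-08 for PRT220, 9.60e-06 for GSK-LSD1, 2.06e-13 for their combination and 1.06e-07 for MS023 with GSK-LSD1, limma). These 4 held with every library left out, with a replicate block and with a term for the RRP9-low libraries. The shares of all 11428 genes tested that were called changed were 16.3% for PRT220, 5.17% for GSK-LSD1, 19.6% for their combination, 4.39% for MS023, 13.4% for MS023 with GSK-LSD1, 14.7% for MC4455 and 12.4% for MC4491. Of the 9 members with at least 2 transcripts tested, 1 was called for each of the first 3 treatments, 0 for MS023, 1 for MS023 with GSK-LSD1, 1 for MC4455 and 2 for MC4491. MS023 had 1 member, LINC02210, at an unadjusted p under 0.05, and no other tool was run on usage.

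The LINC00869 call for MC4455 (adjusted p = 0.0276, limma) was lost without MC4455 replicate C or DMSO replicate A or C (adjusted p = 0.0638 to 0.465) and with the term for the RRP9-low libraries (adjusted p = 0.127). That for MC4491 (adjusted p = 0.00241) was lost without MC4491 replicate A or DMSO replicate C (adjusted p = 0.113 and 0.0986). The other member called with MC4491, LINC00680, passed narrowly (adjusted p = 0.0476) and was lost without any 1 of the MC4491 libraries or DMSO replicate B or C (adjusted p = 0.113 to 0.358) and with the replicate block (adjusted p = 0.142). Because LINC00869-206 carries the stretch like FAM91A1, a part of its counts could be misplaced reads. FAM91A1 itself averaged 208 CPM and was not called with GSK-LSD1 (0.06, adjusted p = 0.165, edgeR) or with the PRT220 combination (0.07, adjusted p = 0.0853, edgeR), and was lower with MS023 and GSK-LSD1 (-0.18, adjusted p = 0.000283, edgeR). FAM91A2P, a pseudogene model that overlaps LINC00869 and matches it at 100% over 2412 bases, averaged 1.72 CPM. It rose with PRT220 and GSK-LSD1 by 2.38 and with MS023 and GSK-LSD1 by 2.16 (adjusted p = 0.00164 and 0.00364, edgeR), while its difference of 1.47 with GSK-LSD1 did not pass the test (adjusted p = 0.0522, edgeR). PDE4DIPP6, a copy elsewhere on chromosome 1 with 96.08% identity over 867 bases and 3.74 CPM, rose by 0.65 with GSK-LSD1, 0.93 with PRT220 and GSK-LSD1 and 0.87 with MS023 and GSK-LSD1 (adjusted p = 0.0119, 0.000401 and 0.000784, edgeR). PDE4DIPP7, another model that overlaps LINC00869, fell by 0.30 with the PRT220 combination and by 0.26 with the MS023 combination (adjusted p = 0.0187 and 0.0422, edgeR). The part of reads divided among these copies in the share of LINC00869-206 was not tested.

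Genes typed like most members, the transcribed unprocessed pseudogenes, can be set beside them. The 373 other transcribed unprocessed pseudogenes tested had 102 called higher and 25 lower in the PRT220 and GSK-LSD1 combination, with a median change of 0.21. The 14314 protein-coding genes had 3667 higher and 3514 lower, with a median of 0.02. With MS023 and GSK-LSD1 the pseudogenes had 137 higher and 15 lower (median 0.32), and with MC4455 119 higher and 7 lower (median 0.31). With MC4491 they had 89 higher and 3 lower (median 0.26), with PRT220 alone 29 higher and 31 lower (median -0.02) and with MS023 alone 1 higher and 0 lower (median 0.10). The median change of the 11 members was 0.12 with MS023 and GSK-LSD1, 0.15 with MC4455, 0.11 with MC4491, -0.08 with PRT220 and 0.03 with MS023. With GSK-LSD1 alone the members had 0 higher and 3 lower (median 0.06) and the pseudogenes 58 higher and 10 lower (median 0.17). None of the 3 lower members, LINC03040, LINC02210 and LINC01667, is typed as a transcribed unprocessed pseudogene. These comparisons share the DMSO libraries, so their values are side by side only, and no test of the class was made.

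How far members moved with their nearest tested protein-coding gene differed between comparisons. The starts of these genes lay from 18830 bases (MCF2L2 for LINC00888) to 1984083 bases (KCNE1B for LINC01667) away. KCNE1B averaged 0.339 CPM and PPIAL4C, the gene paired with LINC00869, 0.53 CPM, so their changes rest on low counts. In the PRT220 and GSK-LSD1 combination against DMSO, both a member and its nearest tested protein-coding gene were called in 4 of 11 pairs, and 2 of the 4 had the same direction. LINC00680 rose while PRIM2, a subunit of DNA primase, fell by 0.26 (adjusted p = 1.6e-05, edgeR), and LINC00674 rose while KPNA2, a nuclear import receptor, fell by 0.27 (adjusted p = 0.00335, edgeR). Across the 11 pairs Pearson's r of the 2 log2 changes was 0.08 and Spearman's rho -0.04, as a description, with the same libraries behind every point. Both were negative with MC4455 (r -0.38, rho -0.82) and MC4491 (r -0.69, rho -0.89), and both were positive between these compounds (r 0.44, rho 0.59). They were also negative with MS023 (r -0.311, rho -0.309) and for the PRT220 combination against GSK-LSD1 (r -0.207, rho -0.555). They were also positive with PRT220 (r 0.138, rho 0.136), with GSK-LSD1 (r 0.232, rho 0.164) and for the combination against PRT220 (r 0.303, rho 0.191). The same held for the interaction of PRT220 and GSK-LSD1 (r 0.171, rho 0.482). The signs matched in 3 of 11 pairs for the PRT220 and GSK-LSD1 combination, 8 for GSK-LSD1 and 9 for the interaction of PRT220 and GSK-LSD1.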

How the data were processed

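Poly(A) RNA of MV4-11 cells was sequenced as unstranded libraries with reads of 101 bases, per the labels' protocols. The authors deposited a gene table and a transcript table of estimated counts (expected counts, not scaled between libraries), a unit read from the values. The submitters' processing notes name GRCh38, DESeq2 1.28.1, STAR 2.7.3a, Salmon 1.2.1 and R 4.0.0 without an order, and the annotation release is not given in the sources used here. Library totals of 32495446 to 61090593 counts limit the precision for low genes such as LINC02898.

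Gene counts were rounded and fitted in R 4.3.3 with edgeR 4.0.16 (TMM, filterByExpr, quasi-likelihood test, all 24 libraries in 1 fit, Benjamini-Hochberg adjustment over 16640 genes, called at an adjusted p of 0.05). All 11 members passed the filter. Transcript usage was tested with limma 3.58.1 (voom and diffSplice) over 11428 genes, a test added after the data were seen. The fits were tested on simulated data. Of the 178398 transcripts, 167008 were paired with genes through GENCODE 29 and held 96.64% to 96.84% of the counts. Copies were sought with blastn 2.17.0, at 95% identity over 200 bases. Promoters are from RefSeq (GRCh38.p14), where 6 of the 11 members had one.

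The members, gene lists and tests were chosen with earlier results of these data known. Named genes were the called members with the largest change in each direction, the most abundant members, and those at the edge of the threshold. Alternatives were DESeq2 1.42.0 and its size factors, no filter beyond a total of 10 counts, only the compared groups, a replicate block, a term for or removal of the RRP9-low libraries, other member rules and leaving out each library. Libraries with the same replicate letter had a correlation of deviations above 0.1 in all 3 pairs only for PRT220 with GSK-LSD1 against DMSO (0.208, 0.170 and 0.402), in which both C libraries had low RRP9; this pairing comes from the data, not from the labels. No 2 libraries of a group were identical.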

Additional observations from a re-analysis of the deposited data

How the results depend on the processing

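None of the 26 called changes reversed its direction under any alternative, and the changes that were not called were not followed across alternatives. Of the 26, 9 held under every alternative run, and 17 lost the call under at least 1. The 26 include LINC02898 with MS023 and GSK-LSD1 and in the PRT220 combination against PRT220. Those LINC02898 calls are a description, since the gene became a member through groups in which it was high. The 9 were LINC03040 with PRT220, GSK-LSD1, their combination (against DMSO and against GSK-LSD1), MS023 with GSK-LSD1 and MC4455, LINC02210 with GSK-LSD1, and LINC00869 with PRT220 and GSK-LSD1 against DMSO and against PRT220. The number of members called moved as follows, and the cause was not tested. With only the compared groups in the fit it was 2 for PRT220 with GSK-LSD1, 2 for MS023 with GSK-LSD1 and 1 for MC4491, all against DMSO. Without the filter on low counts, which adds genes to the adjustment, it was 3 for PRT220 with GSK-LSD1 and 3 for MS023 with GSK-LSD1. With a term for the RRP9-low libraries it was 2 for PRT220 and 1 for MC4491, and members with changed usage were 0 for MC4455 and 1 for MC4491. With members taken by GENCODE 29 names, a rule added after the data were seen, it was 4 for MC4455 and 5 for PRT220 with GSK-LSD1 against PRT220.

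With the replicate letter as a block, the count was 6 in place of 7 for PRT220 with GSK-LSD1 against DMSO and 2 in place of 3 for GSK-LSD1, and members with changed usage were 1 in place of 2 for MC4491. The calls that ended were LINC01667 in the first 2 comparisons (adjusted p = 0.0511 and 0.0532, edgeR), LINC02898 with MS023 and GSK-LSD1 (adjusted p = 0.0537) and in the PRT220 combination against PRT220 (adjusted p = 0.0577), and LINC01145 in that combination against GSK-LSD1 (adjusted p = 0.0558). Over all comparisons, same-letter correlations ran from -0.321 to 0.402, so elsewhere the letters were not taken to pair libraries. With 1 library left out the counts ran from 1 to 2 for PRT220, 2 to 3 for GSK-LSD1, 3 to 5 for their combination, 2 to 4 for MS023 with GSK-LSD1, 0 to 3 for MC4491, 1 to 3 for the combination against PRT220 and 1 to 3 against GSK-LSD1. Members with changed usage then ran from 0 to 1 for MC4455 and 0 to 2 for MC4491. All PRT220 libraries had low RRP9, so their comparisons could not be run on the other libraries. Size factors in place of TMM moved the median change of all genes by at most 0.03 on the log2 scale.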
